A study of Homo sapiens with 16 samples.

Results

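The measurements cover 50 human genes of the cell division cycle in Sorafenib-resistant liver cancer cells: 24 genes of DNA replication and the G1/S transition, 25 genes of mitosis, and CCND1, which encodes cyclin D1. They were chosen by name from knowledge of the cell cycle, but with earlier results of these data known, so their counts are not an independent test. All 50 were found among the 26258 genes of the expression table and passed a filter on low values that left 15019 genes for testing. mRNA was sequenced in 16 libraries of Huh7 and Hep3B cells, both established hepatocellular carcinoma (HCC) lines, in 8 groups of 2 libraries. In each line the groups were untreated parental cells, cells listed under DMSO (the solvent control), cells made resistant by increasing Sorafenib concentrations (IR), and cells made resistant by a constantly high concentration (CR). IR and CR cells were kept in 7 µM Sorafenib, an inhibitor of RAF and receptor tyrosine kinases, whereas the labels list DMSO cells as untreated and give no duration. Each regimen is represented by a single resistant derivative of each line. P-values measure only the spread between libraries of the same group, pooled for each gene over all 8 groups of both lines. For a given gene, a wide pair in a single group therefore widens the error in every comparison. According to the study's methods RNA came from biological triplicates, whereas the labels list a pair of replicates per group and say nothing of separate cultures. In bulk RNA, fewer dividing cells and less RNA per dividing cell cannot be told apart.

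Before S phase, ORC, CDC6 and CDT1 load the MCM2 to MCM7 ring on DNA, and CDC45 and the GINS complex turn it into the active helicase at the fork. Genes of this step are known targets of E2F factors, which are held back by the retinoblastoma family of pocket proteins until cyclin D and cyclin E kinases act. Mitotic genes are known to be transcribed later, in G2, through the MuvB complex with B-MYB and FOXM1, which binds a short promoter element called the cell cycle genes homology region (CHR). In liver, most hepatocytes are quiescent, and the genes of both groups are known as markers of dividing cells.

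The promoters of 4 members are shown because they carry letters found more often in one list than in the other, and they were picked as examples with these matches known. Each is a RefSeq window on GRCh38.p14 from 250 bases before to 50 bases after the gene start, written 5′ to 3′ on the strand of the gene. Capitals mark matches on either strand to E2F letters (TTTGGCGC, TTTCCCGC, TTTCGCGC or TTTGCCGC), to the CHR letters TTTGAA and to CCAAT. MCM3 (chr6:52284693-52284992, minus strand) and MCM6 (chr2:135876394-135876693, minus strand) stand for the replication genes, CDC20 (chr1:43358731-43359030, plus strand) and PLK1 (chr16:23678639-23678938, plus strand) for the mitotic genes.
MCM3: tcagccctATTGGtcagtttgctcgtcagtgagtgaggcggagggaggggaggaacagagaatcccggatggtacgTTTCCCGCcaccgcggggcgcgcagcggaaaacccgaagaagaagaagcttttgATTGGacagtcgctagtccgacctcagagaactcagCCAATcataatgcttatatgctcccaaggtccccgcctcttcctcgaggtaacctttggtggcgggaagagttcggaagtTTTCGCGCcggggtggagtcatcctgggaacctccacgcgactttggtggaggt
MCM6: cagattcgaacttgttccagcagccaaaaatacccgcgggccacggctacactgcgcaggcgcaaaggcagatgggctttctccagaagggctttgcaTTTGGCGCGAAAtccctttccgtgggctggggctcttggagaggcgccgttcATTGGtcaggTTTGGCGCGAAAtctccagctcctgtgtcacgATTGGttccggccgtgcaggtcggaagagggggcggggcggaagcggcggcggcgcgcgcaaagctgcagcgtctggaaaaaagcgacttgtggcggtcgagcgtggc
CDC20: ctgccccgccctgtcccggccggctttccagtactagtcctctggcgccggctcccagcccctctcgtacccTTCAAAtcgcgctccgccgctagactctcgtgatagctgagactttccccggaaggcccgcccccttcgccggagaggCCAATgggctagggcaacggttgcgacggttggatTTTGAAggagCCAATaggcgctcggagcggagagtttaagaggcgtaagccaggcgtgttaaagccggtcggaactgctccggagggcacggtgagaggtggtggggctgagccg
PLK1: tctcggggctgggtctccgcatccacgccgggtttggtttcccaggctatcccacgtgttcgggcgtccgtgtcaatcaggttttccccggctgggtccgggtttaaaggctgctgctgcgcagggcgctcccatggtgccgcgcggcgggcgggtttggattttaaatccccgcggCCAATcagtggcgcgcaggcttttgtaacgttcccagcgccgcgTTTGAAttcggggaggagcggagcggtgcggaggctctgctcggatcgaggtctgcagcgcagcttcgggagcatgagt

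In the windows of MCM3 and MCM6, E2F letters were found and CHR letters were not, and in those of CDC20 and PLK1 it was the reverse. In MCM6 the 2 E2F sites each match on both strands with overlapping letters. RefSeq windows were at hand for 21 of the 24 replication genes and 19 of the 25 mitotic genes. A gene with several windows counted once, as a match if any of them held the letters. E2F letters were present in 14 of the 21 replication genes (66.7%) and in 3 of the 19 mitotic genes (15.8%), against 3.99% of all 27305 genes with a window. CHR letters were present in 13 of the 19 mitotic genes (68.4%) and in 1 of the 21 replication genes, RRM1, against 18.2% of all genes. CCAAT was found in 66.7% of the replication genes, in 89.5% of the mitotic genes and in 39.7% of all genes. The 3 mitotic genes with E2F letters were CDK1, CENPA and NUSAP1, and each of them also held CHR letters. Of other replication genes, 9 of 20 held E2F letters and 0 of 20 CHR letters, and of other mitotic genes 1 of 30 held E2F letters and 23 of 30 CHR letters. A match is a description of letters only.

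Sequencing depth lay between 46613302 and 76860251 reads per library, recovered from the values of the table, which are reads scaled to a common library total (CPM). Huh7-IR was the shallowest group, with 60321745 and 46613302 reads in replicates 1 and 2. The hepatocyte identity of the lines was checked with 10 markers, which all exceeded 1 CPM in the parental libraries, and their summed level was 10730 to 16290 CPM in Huh7 and 17400 to 21550 CPM in Hep3B parental cells. In DMSO cells this sum was 22740 to 27810 CPM in Huh7 and 30900 to 36730 CPM in Hep3B. In resistant Huh7 cells it was 115 to 473 CPM (IR) and 1376 to 2804 CPM (CR), and in resistant Hep3B cells it was 3614 to 10430 CPM (IR) and 1322 to 2162 CPM (CR). Single markers differed from the sum. By the test described below, 4 of the 10 were lower and 1 higher in Hep3B-IR, beside 13.7% and 18.3% of all genes. Lower markers numbered 9 in Huh7-IR, 8 in Huh7-CR and 7 in Hep3B-CR, beside 21.5%, 16.8% and 15.2% of all genes, and 0 were higher. Among markers of leukocytes, CD3E reached at most 0.053 and PTPRC at most 1.32 CPM in the 16 libraries, whereas CD68 lay at 2.59 to 32.9 CPM in parental and DMSO and at 27.6 to 71.9 CPM in resistant libraries. The 3 endothelial markers summed to at most 6.35 CPM, and stromal markers to at most 14.2 CPM in parental and DMSO and 12.7 to 70.2 CPM in resistant libraries. In Hep3B the stromal markers did not move together. Their log2 fold changes against parental cells ran from -1.35 to 4.69 in IR and from -0.54 to 5.70 in CR cells. Whether these shifts take part in the changes of the cell cycle genes was not tested.

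Expression was compared on a log2 scale after adding 1 CPM to each value, and a gene was called changed where limma's p-value, adjusted for 15019 genes by the Benjamini-Hochberg method, was below 0.05. A log2 fold change on this scale understates the change of genes with low values. IR and CR cells of a line share the same 2 parental libraries, so that their comparisons are not independent of each other. In Huh7-IR all genes together had a median log2 fold change of 0.19, and it was 0.04 with TMM factors and 0.00 after quantile normalization. The share of higher genes among all calls of Huh7-IR went from 62.5% to 51.9% and 49.4% with these scalings. Every call of a member kept its direction under all of them.

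In Huh7-IR cells, genes of DNA replication and of mitosis were lower than in parental cells almost throughout. Of the 24 replication genes, 21 were lower and 0 higher, with a median log2 fold change of -1.52, and all 25 mitotic genes were lower, with a median of -1.85. Among all genes tested 21.5% were lower and 36% higher in this comparison. Replication genes that were not called were CDT1, TYMS and TK1, at -0.35, -0.53 and -0.87. Without Huh7-IR replicate 1, which had the lower value of both libraries for 23 replication and all 25 mitotic genes, the calls of E2F1, E2F2, CCNE2 and KIF23 were lost at -0.59 to -0.23, and 18 replication and 24 mitotic genes remained lower, with a median of -0.99 over the replication genes and 0.087 for TK1. The same 3 G1/S genes lost their call without parental replicate 1, and E2F1, CCNE2 and KIF23 without parental replicate 2.

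Huh7-CR cells showed the same direction at a smaller size. Of the replication genes 10 were lower and 0 higher, with a median of -0.70, and of the mitotic genes 17 were lower and 0 higher, with a median of -0.93. These counts stand beside 16.8% lower and 24.5% higher genes among all genes. The mitotic count rested in part on single libraries, since it was 8 without parental replicate 2, 9 without CR replicate 1, 12 without CR replicate 2 and 14 without parental replicate 1, and it was 10 against the DMSO libraries. Without single libraries, the calls of CENPE, CENPF, TPX2, FOXM1, ASPM, AURKA, BUB1B, TOP2A, CCNB2 and KIF20A were among those lost, at log2 fold changes of -1.44 to -0.61. Of the replication calls, those of GINS2, POLE and MCM6 were lost without 1 library, at -1.36 to -0.82.

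Hep3B-IR cells differed in that mitotic genes were called lower and replication genes mostly were not called. All 25 mitotic genes were lower, with a median of -1.25. Of the 24 replication genes only FEN1 and RRM1 were called lower, with a median of -0.32 over the list and of -0.20 without Hep3B-IR replicate 1. Still, 18 of the 24 had a log2 fold change below 0. For 11 of the 24, both IR libraries lay below all parental and DMSO libraries of the line, beside 25.5% of all genes. Among all genes 13.7% were lower and 18.3% higher. The mitotic count was 17 without parental replicate 1, 15 without parental replicate 2, 13 without IR replicate 2, 24 without IR replicate 1 and 16 against the DMSO libraries, and all 25 log2 fold changes stayed below 0, at -0.36 or lower. Genes that lost their call in this way were KIF20A, CENPA, CENPE, BIRC5, MKI67, NUSAP1, BUB1B, TOP2A, TTK, KIF23, CDK1 and CDC20. The replication count rose to 11 with the Hep3B libraries alone and was 5 with DESeq2.

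Hep3B-CR cells had the lowest median of the mitotic genes among the 4 groups. All 25 mitotic genes were lower, with a median of -2.09, and this count was 25 without any single library. Of the replication genes 11 were lower and 0 higher, with a median of -0.75, beside 15.2% lower and 23.6% higher among all genes. The replication count was 4 without parental replicate 2, 5 without CR replicate 1, 6 without CR replicate 2 and 10 without parental replicate 1, and it was 19 with the Hep3B libraries alone. E2F2, MCM2, PCNA, RRM2, TK1, CDC45 and CDC6 lost their call in this way, at log2 fold changes of -2.42 to -0.60.

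**Figure D1:**
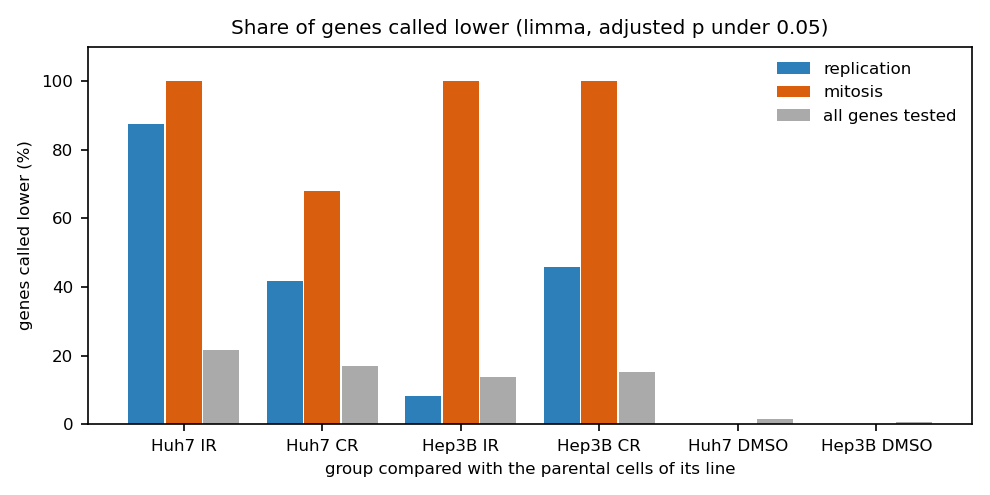
Share of genes called lower than in parental cells (vertical axis, percent) for the 24 replication genes, the 25 mitotic genes and all 15019 genes tested, in each of 6 groups. Mitotic genes reach 100% in Huh7-IR, Hep3B-IR and Hep3B-CR, replication genes range from 8.33% in Hep3B-IR to 87.5% in Huh7-IR, and no member is called in DMSO cells.

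In the DMSO libraries the same genes were mostly not called, but most mitotic genes lay below the parental levels. The log2 fold change was below 0 for 22 of 25 mitotic genes in Huh7 and 23 of 25 in Hep3B, at -0.74 and -0.83 at the lowest. For replication genes this held for 16 of 24 in Huh7 and 12 of 24 in Hep3B. With limma, 0 of the 24 replication and 0 of the 25 mitotic genes were called in either line, beside 1.58% lower and 3.6% higher among all genes in Huh7 and 0.533% and 1.11% in Hep3B. With adjusted p-values edgeR called 0 of these genes in both lines, and DESeq2 called 1 mitotic gene lower in Huh7 and 0 others. At an unadjusted p under 0.05, limma, edgeR and DESeq2 each counted 4 lower mitotic genes in Huh7, DESeq2 counted 1 in Hep3B, and the remaining counts were 0. Median log2 fold changes were -0.16 for replication and -0.29 for mitosis in Huh7, and 0.01 and -0.31 in Hep3B. They depended on single libraries, with -0.34 to 0.10 for replication and -0.56 to -0.10 for mitosis in Huh7 without 1 of the DMSO replicates, and -0.19 for mitosis in Huh7 without parental replicate 2. In Hep3B they were -0.14 to 0.18 for replication without single libraries and -0.16 for mitosis without DMSO replicate 2. Without DMSO replicate 1 of Huh7, 3 replication and 3 mitotic genes were called lower in Huh7.

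Across the 4 resistant groups, 17 mitotic genes and 1 replication gene, FEN1, were lower in every comparison, against 3.87% of all genes tested. Of the replication and mitotic genes, 0 were higher in any of the 4 comparisons by limma, edgeR or DESeq2, also at an unadjusted p under 0.05. All libraries of resistant cells lay below all parental and DMSO libraries of the line for 18 of 24 replication and 19 of 25 mitotic genes in Huh7, where 16.9% of all genes did so, and for 11 of 24 and 24 of 25 in Hep3B, where 16.5% did so.

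**Figure D2:**
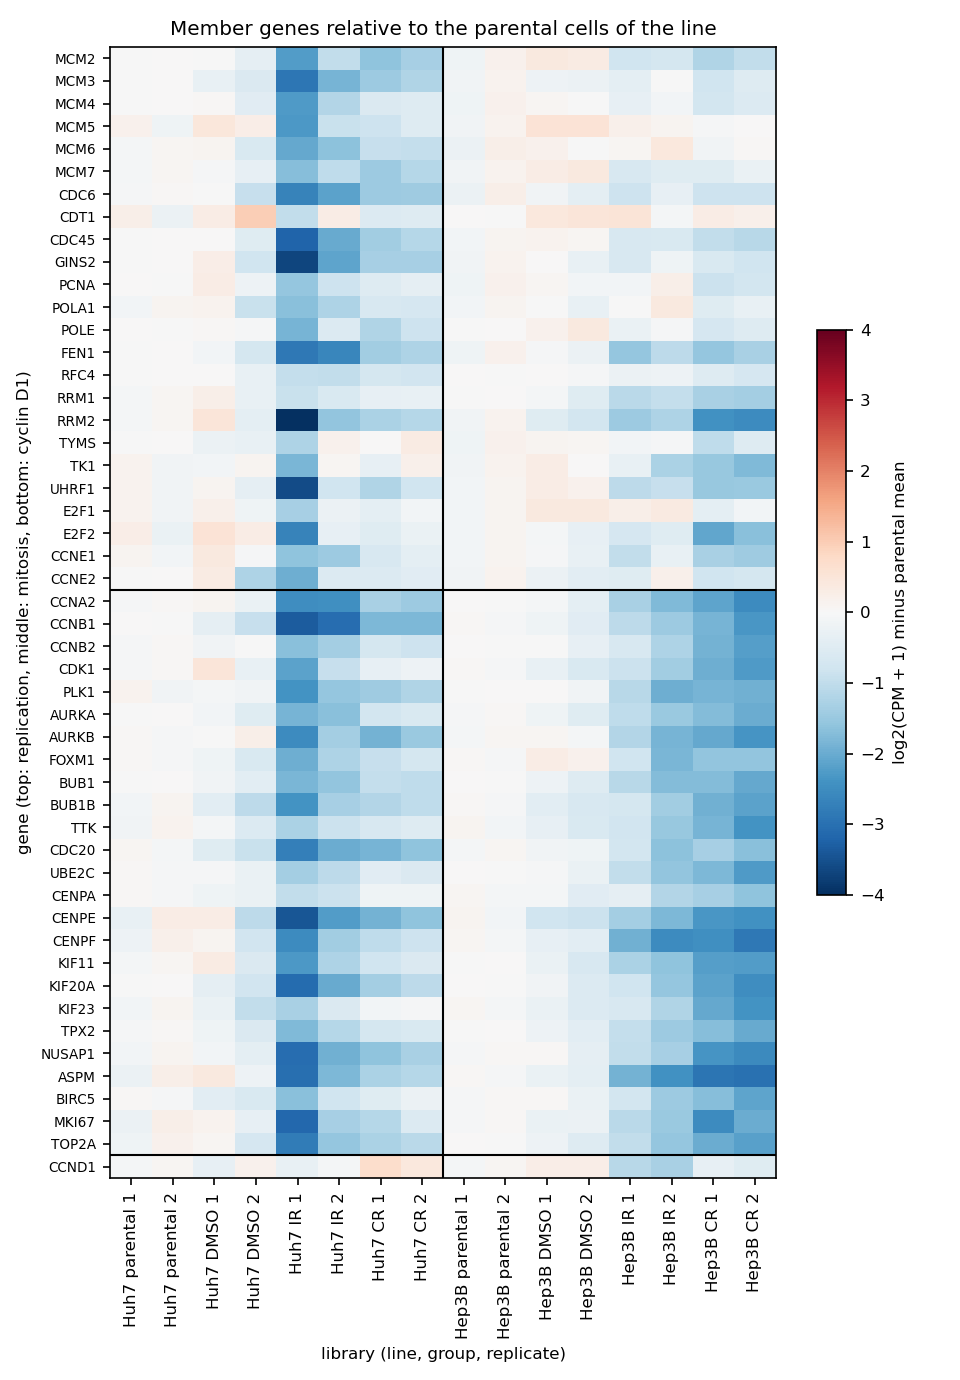
Expression of the 50 genes (rows) in the 16 libraries (columns), as log2(CPM + 1) minus the parental mean of the line, with blue for lower and red for higher values. Mitotic genes are blue in the resistant groups apart from a few pale ones in Huh7-CR, such as KIF23 and CENPA, while most of the upper block of replication genes is pale in Hep3B-IR.

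Among genes of licensing and helicase activation, which prepare origins for firing, 9 of 10 were lower in Huh7-IR cells, 7 in Huh7-CR and 3 in Hep3B-CR cells, and 0 in Hep3B-IR cells. Counts of this and the following roles stand beside the shares of lower genes among all genes. For Huh7 these shares were 21.5% (IR) and 16.8% (CR), and for Hep3B 13.7% (IR) and 15.2% (CR). Whether a role differed from all genes was not tested, and small counts do not set it apart. MCM2 is a subunit of the replicative helicase. MCM2 stood at 202 and 207 CPM in Huh7 parental, 204 and 159.6 in DMSO, 42.97 and 103 in IR and 66.5 and 81.5 in CR libraries of replicates 1 and 2. In Hep3B, MCM2 stood at 157 and 198 CPM in parental, 231 and 220.1 in DMSO, 102 and 107 in IR and 75.8 and 88.1 in CR libraries. Resistant and control libraries did not overlap in either line, and the log2 fold changes were -1.60 (Huh7-IR), -1.46 (Huh7-CR), -0.75 (Hep3B-IR, not called at an adjusted p of 0.0719) and -1.10 (Hep3B-CR). Wherever 4 log2 fold changes are given together, they follow this order. MCM5, another helicase subunit, stood at 98.2 and 76.7 CPM in Huh7 parental, 119 and 105 in DMSO, 16.8 and 46.7 in IR and 48.6 and 59.9 in CR libraries. In Hep3B, MCM5 stood at 78.7 and 96.8 CPM in parental, 127 and 127 in DMSO, 101 and 93.4 in IR and 84.99 and 87.8 in CR libraries. All resistant libraries were lower than the controls in Huh7, but those of Hep3B overlapped the parental libraries and were below DMSO. Its log2 fold change was -1.59 ± 0.33 (SE) in Huh7-IR (adjusted p = 0.00126), and in Hep3B it was 0.15 for IR and -0.02 for CR cells (adjusted p = 0.777 and 0.984).

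CDC6 loads the helicase together with CDT1. CDC6 was measured at 158 and 170.1 CPM in Huh7 parental, 162 and 86.2 in DMSO, 25.1 and 36.6 in IR and 59.4 and 60.99 in CR libraries. In Hep3B, CDC6 was measured at 140.3 and 192 CPM in parental, 150.2 and 125 in DMSO, 92.04 and 131 in IR and 92.96 and 91.8 in CR libraries. Huh7 controls and resistant cells were apart, and in Hep3B the CR libraries were below the controls while IR replicate 2 exceeded DMSO replicate 2. The log2 fold change was -2.40 ± 0.28 (SE) in Huh7-IR and -0.82 ± 0.28 (SE) in Hep3B-CR. CDC45 joins the helicase at the moment of firing. CDC45 was measured at 68.97 and 72.03 CPM in Huh7 parental, 70.5 and 50.2 in DMSO, 6.81 and 16.8 in IR and 26.4 and 31.3 in CR libraries. In Hep3B, CDC45 was measured at 34.95 and 41.4 CPM in parental, 42.2 and 40.2 in DMSO, 23.9 and 24.5 in IR and 18.7 and 17.2 in CR libraries. Control and resistant libraries were apart in both lines, and CDC45 fell in Huh7-IR, Huh7-CR and Hep3B-CR, by 2.60, 1.27 and 1.04 on the log2 scale, whereas Hep3B-IR gave -0.63 (adjusted p = 0.122). CDT1, the other loading factor, had the smallest mean change of the replication genes. CDT1 was measured at 17.1 and 11.8 CPM in Huh7 parental, 17.5 and 29.4 in DMSO, 6.70 and 17.7 in IR and 9.54 and 9.66 in CR libraries. In Hep3B, CDT1 was measured at 8.13 and 7.95 CPM in parental, 11.2 and 11.8 in DMSO, 11.9 and 7.65 in IR and 10.1 and 9.44 in CR libraries. Huh7-CR libraries were below their controls and the other 3 resistant groups overlapped theirs, and log2 fold changes ran from -0.52 to 0.25 with no call. The other 5 genes of this step, MCM3, MCM4, MCM6, MCM7 and GINS2, were all lower in Huh7-IR, with log2 fold changes from -2.90 in GINS2 to -1.36 in MCM7, and none was called in Hep3B, where they ran from -0.69 to 0.24.

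Of 5 genes that work at the fork, Huh7-IR cells had 5 lower and Huh7-CR cells 3, and Hep3B-IR cells had 1 and Hep3B-CR cells 3. PCNA is the sliding clamp of the polymerases. PCNA stood at 277 and 275 CPM in Huh7 parental, 338 and 240.4 in DMSO, 93.3 and 156 in IR and 192 and 214 in CR libraries. In Hep3B, PCNA stood at 215 and 278 CPM in parental, 259 and 225 in DMSO, 224 and 289 in IR and 134 and 148 in CR libraries. Hep3B-IR overlapped the controls and Hep3B-CR was below them, and the log2 fold changes of Hep3B were 0.06 (adjusted p = 0.895) and -0.79 ± 0.23 (SE). FEN1 (chr11:61560383-61564710 on GRCh37, as for the genes that follow), the nuclease that trims Okazaki fragments, stood at 269 and 274 CPM in Huh7 parental, 249.7 and 168 in DMSO, 36.5 and 43.5 in IR and 102 and 115 in CR libraries. In Hep3B, FEN1 stood at 182 and 232 CPM in parental, 199 and 175 in DMSO, 69.4 and 98.95 in IR and 70.4 and 83.3 in CR libraries. No resistant library reached the lowest control in either line, and FEN1 was lower in all 4 comparisons, with log2 fold changes of -2.73 ± 0.21 (SE), -1.32 ± 0.21 (SE), -1.30 ± 0.21 (SE) and -1.42 ± 0.21 (SE). RFC4, a subunit of the clamp loader, was lower in Huh7-IR, Huh7-CR and Hep3B-CR. POLA1 and POLE, catalytic subunits of polymerases alpha and epsilon, were lower in Huh7-IR, at -1.45 and -1.21, and POLE was also lower in Huh7-CR.

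Genes of nucleotide supply behaved unevenly. RRM2 (chr2:10260825-10351851), the regulated subunit of ribonucleotide reductase, had the lowest mean change of the replication genes. RRM2 lay at 162 and 181 CPM in Huh7 parental, 239 and 130.0 in DMSO, 6.55 and 56.96 in IR and 69.96 and 77.4 in CR libraries. In Hep3B, RRM2 lay at 192 and 236 CPM in parental, 152 and 129 in DMSO, 76.4 and 90.2 in IR and 38.95 and 36.1 in CR libraries. Its Huh7-IR libraries were far apart. All resistant libraries were below the controls in both lines, but only the log2 fold changes of -3.04 ± 0.64 (SE) in Huh7-IR and -2.48 ± 0.64 (SE) in Hep3B-CR were called, and the log2 fold change of -1.35 in Hep3B-IR had an adjusted p of 0.13. TYMS, thymidylate synthase, was not called in any group. TYMS lay at 43.1 and 43.5 CPM in Huh7 parental, 36.4 and 34.7 in DMSO, 17.9 and 49.1 in IR and 43.6 and 54.8 in CR libraries. In Hep3B, TYMS lay at 85.5 and 107 CPM in parental, 103 and 100.5 in DMSO, 88.2 and 93.01 in IR and 47.1 and 67.2 in CR libraries. Huh7 groups overlapped, and in Hep3B the CR libraries were below the controls at a log2 fold change of -0.75 (adjusted p = 0.0927). RRM1, the other reductase subunit, fell by 0.75 in Huh7-IR, 1.03 in Hep3B-IR and 1.34 in Hep3B-CR on the log2 scale. TK1, thymidine kinase, was called lower only in Hep3B-CR among the 4 comparisons, by 1.64. Without a call, TK1 was at -0.87 in Huh7-IR, and its Hep3B-IR libraries lay below all parental and DMSO libraries of the line.

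UHRF1 directs maintenance methylation of newly copied DNA. UHRF1 came to 30.1 and 24.3 CPM in Huh7 parental, 29.2 and 20.8 in DMSO, 1.33 and 15.3 in IR and 11.1 and 15.2 in CR libraries. In Hep3B, UHRF1 came to 31.1 and 35.8 CPM in parental, 41.6 and 38.1 in DMSO, 15.6 and 17.1 in IR and 11.00 and 11.3 in CR libraries. Control and resistant libraries did not overlap in either line, yet only Huh7-IR passed the test, at -2.19 ± 0.60 (SE), and its 2 libraries were 1.33 and 15.3 CPM. Its log2 fold change was -1.004 in Huh7-CR cells, and Hep3B gave -0.99 for IR and -1.50 for CR cells.

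The 4 G1/S regulators, which switch on the replication genes, were all lower in Huh7-IR, 0 were called in Huh7-CR and Hep3B-IR, and 2 were lower in Hep3B-CR. E2F1 came to 64.7 and 53.7 CPM in Huh7 parental, 67.5 and 52.2 in DMSO, 23.1 and 50.3 in IR and 44.9 and 54.4 in CR libraries. In Hep3B, E2F1 came to 14.5 and 16.7 CPM in parental, 20.97 and 20.6 in DMSO, 18.5 and 20.5 in IR and 11.7 and 14.5 in CR libraries. Its level in parental Huh7 was above that in parental Hep3B by 1.85 on the log2 scale (adjusted p = 1.58e-04), and the Huh7-IR libraries were below all controls of their line while Huh7-CR and Hep3B-IR overlapped theirs. E2F2, another activating member of the family, came to 14.7 and 9.82 CPM in Huh7 parental, 17.97 and 14.9 in DMSO, 1.03 and 9.44 in IR and 8.24 and 9.80 in CR libraries. In Hep3B, E2F2 came to 8.79 and 10.6 CPM in parental, 9.04 and 7.53 in DMSO, 5.66 and 6.67 in IR and 1.55 and 2.32 in CR libraries. The log2 fold changes were -1.50 ± 0.53 (SE) in Huh7-IR and -1.87 ± 0.53 (SE) in Hep3B-CR, and resistant libraries lay below the controls in both lines, in Huh7 by as little as 9.80 against 9.82 CPM.

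CCNE1 encodes cyclin E1, the partner of CDK2 at the start of S phase. CCNE1 came to 21.2 and 18.2 CPM in Huh7 parental, 25.8 and 19.1 in DMSO, 5.82 and 6.48 in IR and 12.3 and 14.9 in CR libraries. In Hep3B, CCNE1 came to 39.2 and 46.4 CPM in parental, 41.3 and 34.4 in DMSO, 20.9 and 34.5 in IR and 16.9 and 15.2 in CR libraries. CCNE1 was lower in Huh7-IR at -1.53 and in Hep3B-CR at -1.36, and Hep3B-IR replicate 2 was level with DMSO replicate 2. CCNE2, which encodes cyclin E2, came to 21.2 and 21.4 CPM in Huh7 parental, 26.7 and 8.39 in DMSO, 4.77 and 14.1 in IR and 14.2 and 15.1 in CR libraries. In Hep3B, CCNE2 came to 57.9 and 69.95 CPM in parental, 54.1 and 46.9 in DMSO, 45.1 and 73.3 in IR and 36.1 and 38.8 in CR libraries. DMSO replicate 2 of Huh7 was below 3 of the 4 resistant libraries, and the call of Huh7-IR at -1.25 was lost against the DMSO libraries, where the log2 fold change was -0.79.

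Mitotic entry is driven by cyclins A and B with CDK1 and by the Polo and Aurora kinases, and all 8 genes of this role were lower in Huh7-IR, Hep3B-IR and Hep3B-CR, and 7 in Huh7-CR. CCNA2 was found at 194 and 208 CPM in Huh7 parental, 217 and 166 in DMSO, 35.4 and 36.1 in IR and 81.7 and 72.7 in CR libraries. In Hep3B, CCNA2 was found at 255 and 251 CPM in parental, 237 and 193 in DMSO, 103 and 73.8 in IR and 57.2 and 43.1 in CR libraries. Every resistant library of CCNA2, which encodes cyclin A2, was below every control of its line. CCNB1 (chr5:68462962-68474072), which encodes cyclin B1, was found at 466 and 449 CPM in Huh7 parental, 356 and 242 in DMSO, 44.4 and 53.9 in IR and 129.5 and 129.8 in CR libraries. In Hep3B, CCNB1 was found at 373 and 355 CPM in parental, 325 and 265 in DMSO, 176 and 131 in IR and 99.1 and 71.99 in CR libraries. Control and resistant libraries of CCNB1 were apart as well, and it had the lowest log2 fold change of the mitotic genes in Huh7-IR, at -3.20 ± 0.21 (SE) (adjusted p = 2.46e-07), and -1.25 ± 0.21 (SE) in Hep3B-IR. CCNB2, the second B-type cyclin, was found at 71.04 and 76.5 CPM in Huh7 parental, 66.4 and 72.7 in DMSO, 22.4 and 28.2 in IR and 44.6 and 41.1 in CR libraries. In Hep3B, CCNB2 was found at 169 and 166 CPM in parental, 166 and 133 in DMSO, 108 and 70.1 in IR and 44.6 and 35.6 in CR libraries. The log2 fold changes of CCNB2 ran from -2.04 in Hep3B-CR to -0.77 in Huh7-CR. CDK1, the kinase of both cyclins, was found at 166 and 173 CPM in Huh7 parental, 236 and 138 in DMSO, 37.2 and 89.7 in IR and 134 and 148 in CR libraries. In Hep3B, CDK1 was found at 263 and 245 CPM in parental, 208 and 165 in DMSO, 141 and 95.2 in IR and 65.1 and 51.6 in CR libraries. In Huh7-CR replicate 1 was below and replicate 2 above the lowest control, DMSO replicate 2, with a log2 fold change of -0.27 (adjusted p = 0.579), and the other 3 groups were lower.

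PLK1, whose promoter is printed above, activates CDK1 and acts at spindle poles. PLK1 was found at 126 and 101 CPM in Huh7 parental, 108 and 102 in DMSO, 20.8 and 38.4 in IR and 41.4 and 47.99 in CR libraries. In Hep3B, PLK1 was found at 140.2 and 142 CPM in parental, 144 and 127 in DMSO, 65.6 and 36.1 in IR and 38.4 and 36.4 in CR libraries. Groups did not overlap, and the log2 fold changes were -1.96 ± 0.28 (SE), -1.32 ± 0.28 (SE), -1.52 ± 0.28 (SE) and -1.89 ± 0.28 (SE). AURKA, the spindle pole kinase, gave 139.5 and 142 CPM in Huh7 parental, 129 and 101 in DMSO, 38.2 and 43.7 in IR and 83.5 and 91.01 in CR libraries. In Hep3B, AURKA gave 168 and 181 CPM in parental, 156 and 124 in DMSO, 86.6 and 61.7 in IR and 51.3 and 43.4 in CR libraries. AURKA was lower in all 4 groups, from -1.86 in Hep3B-CR to -0.69 in Huh7-CR. AURKB, the kinase of the chromosomal passenger complex, gave 104 and 95.9 CPM in Huh7 parental, 98.1 and 118 in DMSO, 16.6 and 38.1 in IR and 26.4 and 35.2 in CR libraries. In Hep3B, AURKB gave 78.1 and 86.5 CPM in parental, 87.5 and 77.7 in DMSO, 35.7 and 22.1 in IR and 19.01 and 15.3 in CR libraries. AURKB was also lower in all 4 groups, with log2 fold changes of -1.95, -1.68, -1.51 and -2.21, and neither kinase overlapped its controls in either line. FOXM1 encodes a transcription factor of G2 and mitotic genes. FOXM1 gave 219.9 and 208 CPM in Huh7 parental, 190.1 and 141 in DMSO, 54.3 and 91.3 in IR and 112 and 130.1 in CR libraries. In Hep3B, FOXM1 gave 217 and 199.7 CPM in parental, 256 and 233 in DMSO, 119.8 and 58.5 in IR and 69.4 and 68.9 in CR libraries. FOXM1 was lower in all 4 groups, at -1.59, -0.82, -1.30 and -1.58, and its control and resistant libraries were apart in both lines.

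Genes of the spindle checkpoint and of the anaphase-promoting complex were all lower in Huh7-IR, Hep3B-IR and Hep3B-CR, and 3 of 5 in Huh7-CR. BUB1, a checkpoint kinase, read 169 and 176 CPM in Huh7 parental, 156 and 128 in DMSO, 48.01 and 56.7 in IR and 88.3 and 84.7 in CR libraries. In Hep3B, BUB1 read 233 and 225 CPM in parental, 198 and 161 in DMSO, 105 and 68.7 in IR and 67.9 and 55.3 in CR libraries. BUB1 was apart from its controls in both lines and lower in all 4 groups, from -1.89 in Hep3B-CR to -0.99 in Huh7-CR. BUB1B, which encodes the checkpoint inhibitor BubR1, read 215 and 247 CPM in Huh7 parental, 173 and 110.1 in DMSO, 43.2 and 91.8 in IR and 101 and 112 in CR libraries. In Hep3B, BUB1B read 443 and 409.8 CPM in parental, 321 and 274 in DMSO, 260.4 and 163 in IR and 113 and 95.8 in CR libraries. BUB1B was lower in all 4 groups, from -2.03 in Hep3B-CR to -1.05 in Hep3B-IR, although Huh7-CR replicate 2 exceeded DMSO replicate 2. CDC20, the activator of the anaphase-promoting complex, read 249 and 224 CPM in Huh7 parental, 168 and 127 in DMSO, 34.96 and 59.1 in IR and 63.99 and 76.7 in CR libraries. In Hep3B, CDC20 read 122 and 136 CPM in parental, 116 and 113 in DMSO, 77.6 and 40.3 in IR and 51.3 and 40.02 in CR libraries. CDC20 was lower in all 4 groups, at -2.35 ± 0.29 (SE), -1.74 ± 0.29 (SE), -1.19 ± 0.29 (SE) and -1.49 ± 0.29 (SE), and parental Huh7 exceeded parental Hep3B by 0.87. TTK and UBE2C, a checkpoint kinase and a ubiquitin-conjugating enzyme, were lower in 3 groups, and in Huh7-CR they gave -0.57 and -0.52 (adjusted p = 0.1 and 0.0585).

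At the centromere and kinetochore, CENPE, a motor that aligns chromosomes, read 104 and 160.3 CPM in Huh7 parental, 157 and 62.3 in DMSO, 11.3 and 26.5 in IR and 34.3 and 41.3 in CR libraries. In Hep3B, CENPE read 198 and 172 CPM in parental, 106 and 101 in DMSO, 71.2 and 52.5 in IR and 35.8 and 33.6 in CR libraries. CENPE was lower in all 4 groups, from -2.82 in Huh7-IR to -1.58 in Hep3B-IR. CENPF (chr1:214776528-214837917), a large kinetochore protein, read 353 and 467 CPM in Huh7 parental, 435 and 238 in DMSO, 70.6 and 153 in IR and 201 and 226 in CR libraries. In Hep3B, CENPF read 1270 and 1136 CPM in parental, 954 and 899 in DMSO, 317 and 208 in IR and 217 and 163 in CR libraries. Parental Huh7 was below parental Hep3B at a difference of -1.56 on the log2 scale, and the resistant libraries were below their controls in both lines. CENPA, the centromeric histone, had the smallest mean change of the mitotic genes. CENPA read 19.1 and 17.7 CPM in Huh7 parental, 16.3 and 15.04 in DMSO, 8.75 and 9.57 in IR and 16.2 and 16.3 in CR libraries. In Hep3B, CENPA read 26.3 and 23.8 CPM in parental, 23.5 and 18.1 in DMSO, 19.2 and 10.4 in IR and 9.45 and 7.48 in CR libraries. Huh7-CR overlapped its controls at -0.17 (adjusted p = 0.618), and Hep3B-IR replicate 1 was above DMSO replicate 2, although Hep3B-IR was called at -0.77.

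Motors and binding proteins of the spindle and of cytokinesis were lower in 7 of 7 cases in Huh7-IR, Hep3B-IR and Hep3B-CR and in 4 of 7 in Huh7-CR. ASPM, a protein of spindle poles, had the lowest mean change of the mitotic genes. ASPM reached 201 and 284 CPM in Huh7 parental, 312 and 207 in DMSO, 28.5 and 67.4 in IR and 97.96 and 108 in CR libraries. In Hep3B, ASPM reached 732 and 676 CPM in parental, 579.6 and 534 in DMSO, 189.9 and 129.7 in IR and 91.8 and 87.2 in CR libraries. Control and resistant libraries were apart in both lines, with log2 fold changes of -2.96 ± 0.33 (SE) in Hep3B-CR and -2.16 ± 0.33 (SE) in Hep3B-IR. KIF20A, a kinesin of the midzone, reached 194 and 195 CPM in Huh7 parental, 151 and 115 in DMSO, 22.2 and 47.6 in IR and 74.7 and 93.8 in CR libraries. In Hep3B, KIF20A reached 158 and 157 CPM in parental, 142 and 108 in DMSO, 90.2 and 52.6 in IR and 34.8 and 27.3 in CR libraries. KIF20A was lower in all 4 groups without overlap, from -2.54 in Huh7-IR to -1.18 in Hep3B-IR. TPX2, which activates AURKA on the spindle, reached 583 and 609 CPM in Huh7 parental, 534 and 399.9 in DMSO, 173 and 272 in IR and 366 and 391 in CR libraries. In Hep3B, TPX2 reached 731 and 741 CPM in parental, 644 and 549 in DMSO, 379 and 270.4 in IR and 224 and 182 in CR libraries. TPX2 was lower in all 4 groups as well, from -1.86 in Hep3B-CR to -0.65 in Huh7-CR. NUSAP1, a microtubule binder, reached 206 and 238 CPM in Huh7 parental, 206 and 169.5 in DMSO, 26.1 and 57.2 in IR and 71.9 and 90.1 in CR libraries. In Hep3B, NUSAP1 reached 297 and 319 CPM in parental, 321 and 238 in DMSO, 156 and 122 in IR and 58.8 and 51.3 in CR libraries. NUSAP1 was lower in all 4 groups without overlap, at -2.48, -1.45, -1.15 and -2.46. KIF11, KIF23 and BIRC5, which encode kinesins of spindle bipolarity and cytokinesis and the protein survivin, were not called in Huh7-CR, at -0.69, -0.08 and -0.35, and were lower in the other groups. Against DMSO in place of parental cells, KIF23 was at 0.54 and BIRC5 at 0.18 in Huh7-CR.

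MKI67 encodes the antigen Ki-67 of dividing cells. MKI67 reached 387 and 529 CPM in Huh7 parental, 501 and 361 in DMSO, 50.1 and 180.4 in IR and 205 and 309 in CR libraries. In Hep3B, MKI67 reached 392 and 416 CPM in parental, 335 and 345 in DMSO, 191 and 145 in IR and 70.3 and 101 in CR libraries. MKI67 was lower in Huh7-IR at -2.23 ± 0.44 (SE), in Hep3B-IR at -1.27 ± 0.44 (SE) and in Hep3B-CR at -2.25 ± 0.44 (SE), and not called in Huh7-CR at -0.84 (adjusted p = 0.148). TOP2A (chr17:38544777-38574148), the topoisomerase that untangles chromosomes, reached 551 and 691 CPM in Huh7 parental, 658 and 389.6 in DMSO, 88.7 and 212 in IR and 257 and 289 in CR libraries. In Hep3B, TOP2A reached 1477 and 1456 CPM in parental, 1281 and 1018 in DMSO, 736 and 496 in IR and 369.5 and 326 in CR libraries. TOP2A was lower in all 4 groups, at -2.16, -1.18, -1.28 and -2.08, and its resistant libraries did not overlap with the controls.

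CCND1 (chr11:69455924-69469242), which encodes the cyclin D1 of the G1 kinases CDK4 and CDK6, did not follow the other genes. CCND1 had 271 and 306 CPM in Huh7 parental, 229 and 327 in DMSO, 233 and 272 in IR and 468 and 386 in CR libraries. In Hep3B, CCND1 had 152 and 169 CPM in parental, 194 and 192 in DMSO, 73.4 and 64.1 in IR and 129 and 115 in CR libraries. Huh7-CR libraries were above all other Huh7 libraries, and Hep3B-IR libraries were below all other Hep3B libraries. CCND1 was higher in Huh7-CR by 0.56 ± 0.17 (SE) (adjusted p = 0.0196), a call lost with edgeR (adjusted p = 0.0571), without parental replicate 1 (0.48, adjusted p = 0.117) and without CR replicate 1 (0.42, adjusted p = 0.161). The gene was lower in Hep3B-IR at -1.22 ± 0.17 (SE) (adjusted p = 2.35e-04). Huh7-IR gave -0.19 and Hep3B-CR -0.40, neither of which was called, although Hep3B-CR passed with edgeR at -0.52 (adjusted p = 0.0402) and with DESeq2 at -0.54 (adjusted p = 0.0165).

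To set replication against mitosis, the mean log2(CPM + 1) of each list was taken per library relative to the parental mean. These means describe the lists and carry no test. In Huh7 the replication and mitosis lists moved together, by -1.61 ± 0.81 (SD, n = 2) and -1.88 ± 0.56 in Huh7-IR and by -0.79 ± 0.13 and -0.97 ± 0.11 in Huh7-CR. In Hep3B-IR the replication list was at -0.39 ± 0.13 and the mitosis list at -1.31 ± 0.43. In Hep3B-CR they were at -0.87 ± 0.06 and -2.10 ± 0.17. The gap between both lists was 0.27 ± 0.25 in Huh7-IR and 0.17 ± 0.02 in Huh7-CR, whereas Hep3B had 0.92 ± 0.56 for IR and 1.23 ± 0.23 for CR cells. In DMSO cells the gap was 0.19 and 0.31 in Huh7 and Hep3B, and in parental cells its SD was 0.11 in Huh7 and 0.20 in Hep3B.

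**Figure D3:**
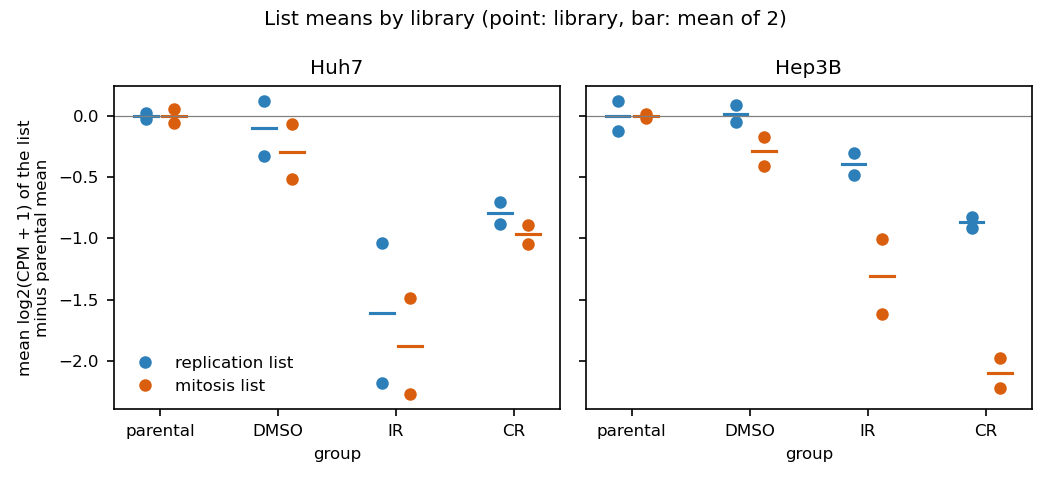
Mean log2(CPM + 1) of the 24 replication genes and the 25 mitotic genes in each library, minus the parental mean of the line (vertical axis), by group, with points for libraries and bars for the mean of 2. The lists lie close together in Huh7, and in Hep3B-IR and Hep3B-CR the mitosis list lies 0.92 and 1.23 lower than the replication list on average.

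Replicates of one group differed on these lists. Huh7-IR replicate 1 was lower than replicate 2 in 23 of 24 replication genes and all 25 mitotic genes, with median differences of -1.14 and -0.86 on the log2 scale, when the median of all genes differed by 0.03. Hep3B-IR replicate 1 was lower in 21 of 24 replication genes but higher in all 25 mitotic genes, so that the gap between lists was 0.52 in replicate 1 and 1.31 in replicate 2. In Huh7 DMSO cells, replicate 1 was higher in 22 replication and 23 mitotic genes. Replicate differences also followed the GC content of transcripts across genes, with Spearman's rho of 0.53 for parental and -0.51 for DMSO libraries of Huh7, -0.38 for DMSO libraries of Hep3B and -0.27 to 0.28 for the other groups. The median GC content was 51.7% for replication genes, 44.4% for mitotic genes and 47.5% for all genes. With a correction for GC content the gap between lists was 0.15 and 0.16 in IR and CR cells of Huh7 and 0.91 and 1.14 in IR and CR cells of Hep3B.

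The regimens of selection were compared directly within each line. Mitotic genes were lower in Huh7-IR than in Huh7-CR cells in 15 of 25 cases and replication genes in 9 of 24, where 6.36% of all genes were lower and 9.67% higher. The lower genes included CCNB1 at -1.39 ± 0.21 (SE), KIF20A at -1.33 ± 0.32 (SE), FEN1 at -1.42 ± 0.21 (SE) and CDC45 at -1.33 ± 0.29 (SE). Both counts depended on the libraries: without IR replicate 1 they were 3 mitotic and 2 replication genes, without IR replicate 2 23 and 19, without CR replicate 1 3 and 3, and without CR replicate 2 3 and 1. With Huh7 libraries alone they were 3 and 1.

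Hep3B showed the opposite order. Mitotic genes were higher in Hep3B-IR than in Hep3B-CR in 9 of 25 cases, and replication genes in 1 of 24, PCNA at 0.85 ± 0.23 (SE), beside 6.13% higher and 7.55% lower among all genes. CCNB2 at 1.11 ± 0.20 (SE), KIF20A at 1.14 ± 0.32 (SE) and NUSAP1 at 1.31 ± 0.29 (SE) were among the higher mitotic genes. The mitotic count was 1 without IR replicate 1 and 1 without CR replicate 2, 11 without IR replicate 2 and 7 without CR replicate 1. It was 14 with DESeq2 and 19 with the Hep3B libraries alone. The call of PCNA was lost whichever of the 4 libraries was left out, at 0.67 to 1.03.

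The lines were then set against each other by testing whether the change from parental cells differed between Huh7 and Hep3B. For IR cells, the change of 11 of 24 replication genes was lower in Huh7 and of 0 was higher, with a median difference of -1.15, and that of 5 of 25 mitotic genes was lower, with a median of -0.43. Among all genes the change was lower in Huh7 for 15.2%. The replication genes were MCM3, MCM4, MCM5, MCM6, CDC6, CDC45, GINS2, PCNA, POLA1, FEN1 and RFC4, with differences from -2.50 ± 0.60 (SE) in GINS2 to -0.74 ± 0.17 (SE) in RFC4. MCM6, whose promoter is printed above and whose values are given because of this difference, measured 242 and 275 CPM in Huh7 parental, 276 and 169 in DMSO, 61.6 and 81.3 in IR and 136 and 132 in CR libraries. In Hep3B, MCM6 measured 172 and 234 CPM in parental, 228 and 198 in DMSO, 209.9 and 269 in IR and 181 and 208 in CR libraries. All Huh7 resistant libraries were below the controls and the Hep3B-IR libraries overlapped them, and the difference of the log2 changes was -2.09 ± 0.33 (SE) (adjusted p = 4.73e-04). The medians rested on single libraries, at -0.65 for replication and -0.05 for mitosis without Huh7-IR replicate 1, at -1.76 and -0.87 without Huh7-IR replicate 2, and for mitosis at -0.13 and -0.76 without Hep3B-IR replicates 1 and 2. The count of 11 replication genes was 10 to 12 without single libraries except for 21 without Huh7-IR replicate 2, and it was 17 with a correction for GC content. The count of 5 mitotic genes was 10 without Huh7-IR replicate 2, 7 without Hep3B-IR replicate 2, 3 without Huh7 parental replicate 1 or Hep3B parental replicate 2, 2 without Huh7-IR replicate 1 or Hep3B parental replicate 1, and 1 without Huh7 parental replicate 2 or Hep3B-IR replicate 1.

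For CR cells the calls lay mostly among the mitotic genes. The change of 14 of 25 mitotic genes was higher in Huh7 than in Hep3B, which means that they fell less in Huh7, with a median difference of 1.18, where 11.4% of all genes were higher. KIF23 at 2.14 ± 0.38 (SE), CDK1 at 1.84 ± 0.49 (SE) and CENPF at 1.74 ± 0.49 (SE) were among them. Of the replication genes, RRM1 was higher at 1.01 ± 0.25 (SE) and MCM7 lower at -0.94 ± 0.30 (SE), and the call of MCM7 was lost whichever of the 8 libraries was left out and with edgeR and DESeq2, that of RRM1 without Huh7 parental replicate 1. The mitotic count was 4 without Hep3B-CR replicate 2, 6 without Hep3B parental replicate 1, 7 without Huh7 parental replicate 1 or Huh7-CR replicate 2, 9 without Hep3B parental replicate 2 and 10 to 13 without the other libraries.

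The difference between IR and CR cells also differed between the lines, a contrast that contains no parental library. It was lower in Huh7 for 21 of 25 mitotic genes, with a median of -1.73, and for 15 of 24 replication genes, with a median of -1.38, beside 9.85% of all genes. CCNB1 gave -2.23 ± 0.29 (SE), KIF20A -2.47 ± 0.45 (SE), MKI67 -2.37 ± 0.62 (SE), RRM2 -2.96 ± 0.90 (SE) and E2F2 -2.41 ± 0.75 (SE). The mitotic count was 15 to 25 without single libraries. The replication median was -0.83 without Huh7-IR replicate 1. The replication count was 22 without Huh7-IR replicate 2 and 4 without Hep3B-IR replicate 2, and without Huh7-CR replicate 1, Huh7-CR replicate 2, Hep3B-CR replicate 1, Hep3B-CR replicate 2, Huh7-IR replicate 1 and Hep3B-IR replicate 1 it was 6, 5, 7, 8, 9 and 10.

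**Figure D4:**
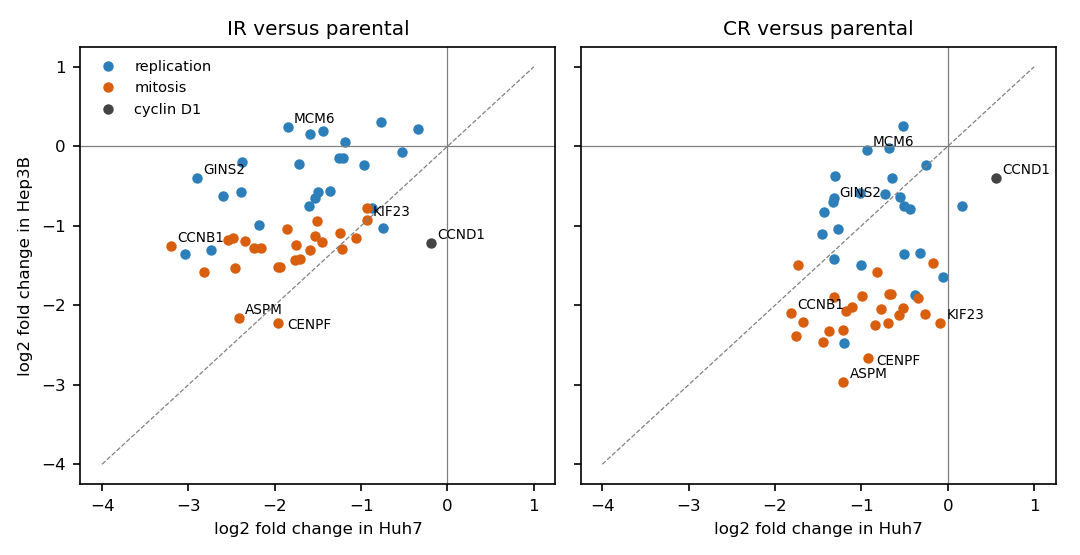
Log2 fold change against parental cells in Huh7 (horizontal axis) and Hep3B (vertical axis) for each of the 50 genes in IR cells (left) and CR cells (right), coloured by list, with a dashed line of equal change. In IR cells many replication genes lie above the line of equal change at values near 0 in Hep3B, as MCM6 at -1.85 and 0.24, and in CR cells most mitotic genes lie below it, as KIF23 at -0.08 and -2.22.

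Averaged over IR and CR cells, the change was lower in Huh7 for 9 and higher for 1 replication gene and lower for 1 and higher for 2 mitotic genes, beside 14.2% lower and 17.4% higher genes among all genes. The count of 9 lower replication genes was 16 without Huh7-IR replicate 2, 2 to 6 without a parental or CR library of either line or Hep3B-IR replicate 2, and 5 with edgeR.

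The parental lines differed in some of these genes before any selection, in no larger a share than among all genes. Between parental Huh7 and parental Hep3B, 5 replication genes were lower and 3 higher in Huh7, and 6 mitotic genes were lower and 1 higher, beside 27.8% lower and 22.5% higher among all genes. Higher in Huh7 were E2F1 at 1.85 ± 0.28 (SE), MCM7 at 1.03 ± 0.21 (SE), CDC45 at 0.87 ± 0.29 (SE) and CDC20 at 0.87 ± 0.29 (SE). Lower in Huh7 by more than 1 were CCNE2, TYMS, CCNE1, CENPF, ASPM, TOP2A and CCNB2, from -1.56 in CENPF to -1.08 in CCNE1.

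Further genes of the same processes gave the following counts. Of 32 other mitotic genes, 32 were lower in Huh7-IR cells and 32 in Hep3B-CR, 30 in Hep3B-IR and 21 in Huh7-CR cells, and 0 were higher in any of them by limma. Among them NCAPG, a condensin subunit, had the lowest mean change, with -2.96, -1.47, -1.66 and -2.32, followed by the checkpoint gene MAD2L1, with -2.66, -1.73, -1.52 and -2.12. CKAP2L and NDC80 had the smallest mean changes and were not called in Huh7-CR. Of 25 other replication genes, 21 were lower in IR and 14 in CR cells of Huh7, and 6 in IR and 14 in CR cells of Hep3B. Of all genes, 21.5% (IR) and 16.8% (CR) were lower in Huh7, and 13.7% (IR) and 15.2% (CR) in Hep3B. The 6 other replication genes lower in Hep3B-IR were 24% of their list, beside this 13.7%. MCM10, a factor of helicase activation, gave -2.59 in Huh7-IR and -2.23 in Hep3B-CR. POLD3 was not called in any group, and RFC2 was lower in Huh7-IR at -0.67 and higher in Hep3B-CR at 0.45.

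Regulators of the cycle included lower and higher genes, and the higher ones were no more frequent than among all genes. Of 27 genes, 10 were lower and 7 higher in Huh7-IR, beside 21.5% and 36% of all genes, and 6 were lower and 6 higher in Huh7-CR, beside 16.8% and 24.5%. Hep3B had 8 lower and 3 higher with IR selection, beside 13.7% and 18.3% of all genes, and 10 lower and 2 higher with CR selection, beside 15.2% and 23.6%. The repressor gene E2F8 fell furthest on average, with -3.59, -2.26, -2.18 and -2.96, followed by CDC25A, the phosphatase that activates CDK2, with -2.93, -1.72, -2.41 and -2.34. LIN37, a subunit of the MuvB complex, was higher in Huh7-IR, Huh7-CR and Hep3B-CR, at 1.56, 0.86 and 1.14, and E2F7 was higher in both Huh7 groups. Named after their values were seen, MYBL2, which encodes B-MYB, was lower in Huh7-IR at -1.57, in Hep3B-IR at -1.72 and in Hep3B-CR at -2.41, and the MuvB gene LIN9 in the same groups at -1.80, -1.62 and -1.56. CDK6, also named after its values were seen, was higher in Huh7-IR and Huh7-CR at 0.85 and 0.55 and lower in Hep3B-IR and Hep3B-CR at -1.09 and -1.001. RB1, which encodes the retinoblastoma protein and was likewise named afterwards, had 81.05 and 97.3 CPM in Huh7 parental, 110.4 and 96.5 in DMSO, 157 and 159 in IR and 119 and 116 in CR libraries. In Hep3B, RB1 had 3.50 and 2.83 CPM in parental, 3.10 and 3.04 in DMSO, 6.30 and 5.40 in IR and 3.60 and 3.12 in CR libraries. Every Hep3B library was thus far below every Huh7 library, with a parental difference of 4.44 ± 0.15 (SE) (adjusted p = 7.65e-10), and whether this has a part in the differences between the lines was not tested.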

How the data were processed

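Poly(A) RNA of 16 libraries was sequenced with a stranded mRNA kit per the labels. The study's methods describe biological triplicates and another sequencer, whereas the labels give 2 replicates per group. The authors aligned reads with STAR to hg19, counted unique hits over RefSeq exons with QuasR and deposited CPM values per gene. Deposited CPM values were whole multiples of 1 read in 100% of cases within 0.05 reads, so that reads per library were recovered (46613302 to 76860251), and counting error is therefore small for the named genes.

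Of the 26258 genes, 26111 matched a symbol by Entrez identifier. Genes at or above 1 CPM in 2 or more libraries (15019) were tested with limma 3.58.1 (R 4.3.3) on log2(CPM + 1), all 16 libraries and 8 groups in 1 fit with a trend in the variance, and p-values were adjusted by the Benjamini-Hochberg method over all genes tested. SE is the moderated standard error of limma. The test was tested on simulated data with known changes. Because the deposited values were CPM, count models served as alternatives only: edgeR 4.0.16 (quasi-likelihood) and DESeq2 1.42.0 on the recovered reads. Other alternatives were TMM factors, quantile normalization, pseudocounts of 0.25 and 4 CPM, no filter, a filter at 5 CPM, each line alone, the replicate number as a block, a correction for GC content, DMSO as reference, the call rule of the study's methods (unadjusted p below 0.05 and a log2 fold change of 0.58 or more in size), and leaving out each library. A list mean is the mean of log2(CPM + 1) over its genes.

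The members and lists were chosen with earlier results of these data known. Values in every library were written out for a fixed list of 24 genes, for the genes of each list with the lowest and the highest mean change over the resistant groups, for genes called in the same direction in all 4 resistant groups, and for genes called in opposite directions between the lines. Of the further lists, the genes with the 2 lowest and 2 highest mean changes were named, except that 1 of these genes, and 1 marker gene, are not reported here. Promoter windows came from RefSeq (GRCh38.p14) and gene spans from GENCODE on GRCh37.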

Additional observations from a re-analysis of the deposited data

Results flagged for a closer look

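The change from parental to resistant cells, averaged over IR and CR cells, was tested for a difference between the lines with limma, and the genes below passed at an adjusted p below 0.05. Replication genes whose change was lower in Huh7 than in Hep3B were GINS2 with a log2 difference of -1.57, MCM6 with -1.49, MCM3 with -1.42, CDC6 with -1.21, MCM5 with -1.20, CDC45 with -1.10, POLA1 with -0.94, MCM7 with -0.87 and RFC4 with -0.43. They are helicase subunits, loading and activating factors, polymerase alpha and the clamp loader. RRM1, the large subunit of ribonucleotide reductase, differed the other way by 0.65. Among mitotic genes, CCNB1 gave -0.83, and UBE2C and KIF23 gave 0.79 and 1.07, since they fell further in Hep3B. CCND1 gave 0.99, being lower in Hep3B-IR cells and higher in Huh7-CR cells.

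By regimen, the change of IR cells was lower in Huh7 than in Hep3B for 11 replication and 5 mitotic genes, beside 15.2% of all genes. The change of CR cells was lower in Huh7 for 1 replication gene, MCM7, and higher for 1 replication gene, RRM1, and for 14 mitotic genes. Among all genes it was lower for 10.9% and higher for 11.4%. The difference between IR and CR cells was lower in Huh7 than in Hep3B for 15 replication and 21 mitotic genes, beside 9.85% of all genes.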

How the results depend on the processing

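With 2 libraries per group, single libraries weigh on every count, and the labels do not tell whether the libraries are separate cultures, although the study's methods speak of biological triplicates. Every call of a replication or mitotic gene in the resistant groups kept its sign under every alternative. Among all results and alternatives, 865 values of counts and list means stayed within the margin and 161 moved. The margin was a ratio of 1.5 for counts and 1 SD of the replicates for the gap between list means. Counts that were 0 and stayed at 0 are among the 865, such as those of higher genes in Huh7-IR. Both numbers therefore do not measure how firm the other counts are.

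When 1 library was left out in turn, the counts of lower genes against parental cells were 8 to 14 for mitosis in Huh7-CR (17 with all libraries), 13 to 24 for mitosis in Hep3B-IR (25), 4 to 10 for replication in Hep3B-CR (11), and 0 to 3 for replication and 0 to 3 for mitosis in Huh7 DMSO (0). Between IR and CR cells they were 1 to 19 for replication and 3 to 23 for mitosis in Huh7 (9 and 15), and 0 to 1 higher replication and 1 to 11 higher mitotic genes in Hep3B (1 and 9). For the line difference of the mean change, they were 2 to 16 lower and 0 to 3 higher replication genes (9 and 1), and 0 to 2 lower and 0 to 7 higher mitotic genes (1 and 2). For the line difference of the IR change they were 10 to 21 for replication and 1 to 10 for mitosis (11 and 5). For that of the CR change they were 0 lower and 0 to 1 higher replication genes (1 and 1) and 4 to 13 higher mitotic genes (14). For the line difference of IR minus CR they were 4 to 22 for replication (15). Between parental lines they were 3 to 5 lower replication genes (5) and 0 higher mitotic genes (1).

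With the libraries of each line alone, 19 replication genes were lower in Hep3B-CR and 11 in Hep3B-IR, 1 replication gene was higher, 1 lower and 1 mitotic gene lower in Hep3B DMSO, 13 replication and 19 mitotic genes were higher in Hep3B-IR than Hep3B-CR, and 1 replication and 3 mitotic genes were lower in Huh7-IR than Huh7-CR. DESeq2 gave 5 lower replication genes in Hep3B-IR, 1 lower mitotic gene in Huh7 DMSO, 4 higher replication and 14 higher mitotic genes in Hep3B-IR against CR, 2 higher and 0 lower replication genes for the line difference of the CR change, and 0 higher replication genes for that of the mean change. With edgeR these last 3 counts were 1, 0 and 0, and there were 2 higher replication genes in Hep3B-IR against CR, and 5 lower replication and 1 higher mitotic gene for the mean change. TMM factors gave 2 higher replication genes in Hep3B-IR against CR, 0 lower for the CR change and 0 higher for the mean change, and quantile normalization gave 2 in Hep3B-IR against CR. Without a filter, counts were 5 higher mitotic genes in Hep3B-IR against CR, 6 lower mitotic genes in Huh7-IR against CR, 9 lower replication genes for IR minus CR, 3 lower mitotic genes for the IR change, 0 lower replication genes for the CR change, 5 lower and 0 higher replication and 0 lower and 0 higher mitotic genes for the mean change, and 0 higher mitotic genes between parental lines. Against DMSO, counts were 16 mitotic and 4 replication genes lower in Hep3B-IR, 10 mitotic genes lower in Huh7-CR, 0 lower replication genes for the CR change, and 4 lower and 0 higher replication and 0 lower mitotic genes for the mean change. The call rule of the study's methods gave 4 lower replication genes in Hep3B-IR, 4 lower mitotic genes in Huh7 DMSO, 3 higher replication and 19 higher mitotic genes in Hep3B-IR against CR, 3 higher and 2 lower replication genes for the CR change, and 4 higher mitotic genes for the mean change. With a correction for GC content there were 3 higher replication genes in Hep3B-IR against CR, 2 higher and 0 lower for the CR change, 17 lower for the IR change and 0 higher for the mean change.

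The gap between the list means moved beyond 1 SD to 0.212 with the GC correction in Hep3B DMSO, to 0.138 with quantile normalization in Huh7-CR, and to 0.141 with quantile normalization, 0.184 with a pseudocount of 4 CPM and 0.116 with the GC correction in Huh7 DMSO.

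Replicate numbers are shared between groups, and correlations of same-numbered deviations ran from -0.22 to 0.44. The largest were 0.44 between Huh7-IR and Huh7-CR and 0.21 to 0.26 among Hep3B parental, IR and CR cells. The correlations therefore do not settle whether same-numbered libraries are pairs. With the replicate block, 20 replication genes were lower in Huh7-IR, 7 in Huh7-IR against CR and 12 for the line difference of IR minus CR, 0 were higher for the mean change, and 0 mitotic genes were higher between parental lines. With the GC correction and the replicate block together, there were 0 higher replication genes in Hep3B-IR against CR, 2 higher and 0 lower for the CR change, 17 lower for the IR change, 0 higher for the mean change, and 0 higher mitotic genes between parental lines. A crossed block was added after the data were seen, for parental cells and any group of the line at a correlation of -0.12 or lower. Huh7 parental and CR cells, at -0.02, were left out. The crossed block gave 16 replication and 25 mitotic genes lower in Huh7-IR, against 15 and 24 with the uncrossed block in the same 4 libraries. In both DMSO comparisons the crossed block gave 0.

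Log2 fold changes that changed sign were of genes not called in that group. Of the genes with values given by library, those against DMSO were -0.38 for MCM5, -0.09 for E2F1, 0.19 for CCNE2 and -0.24 for CDT1 in Hep3B-IR, -0.21 for CDT1 in Hep3B-CR and 0.054 for CENPA in Huh7-CR. PCNA in Hep3B-IR gave -0.006 with edgeR, -0.023 with DESeq2, -0.002 with TMM factors, -0.007 with the GC correction alone and -0.007 with the block added. CDT1 in Hep3B-CR was at 0.00 after quantile normalization, at -0.14 with the GC correction alone and at -0.14 with the block added. When 1 library was left out, the values of PCNA in Hep3B-IR ran from -0.12 to 0.243, of MCM5 in Hep3B-CR from -0.163 to 0.133, of TYMS in Huh7-IR from -1.23 to 0.18 and in Hep3B-IR from -0.234 to 0.083, of CCNE2 in Hep3B-IR from -0.488 to 0.20, and of CDT1 in Huh7-IR from -0.985 to 0.29 and in Hep3B-IR from -0.064 to 0.511. Of the other replication and mitotic genes, 3 changed sign against DMSO, to 0.54 for KIF23 and 0.18 for BIRC5 in Huh7-CR and to 0.0022 for MCM3 in Hep3B-IR, and 4 did so without single libraries, TK1, KIF23, POLA1 and MCM6. The causes were not tested.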
